A study of Rattus norvegicus with 44 samples.

Results

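The comparison described here is between rats homozygous (Homo) and heterozygous (Het) at Xdh at postnatal day 15 (PND15), read from RNA of the kidney cortex. It holds 8 of the 44 libraries of the series, 4 labelled PND15_Homo and 4 labelled PND15_Het, all from males. The series covers 3 genotypes (Homo, Het and wild type, WT) at 4 ages (PND0, PND5, PND15 and PND21), and it asks what Xdh means for the kidney as it matures after birth. Whole litters were collected, and RNA came from the frozen kidney of each pair. The sources used here do not name the kind of Xdh allele, the strain or the litter of each pup. Het animals carry the allele on 1 copy and Homo animals on both, and no other treatment is labelled. The 4 PND15_WT libraries are given as levels only. Levels are in FPKM, which scales reads by gene length and by depth, with the mean and SD over 4 libraries. Differences are Homo minus Het on the log2(FPKM + 1) scale with their SE, which understates the change of weakly expressed genes. A gene was called, and is said to have risen, fallen or changed, where limma gave a Benjamini-Hochberg adjusted p below 0.05.

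Xdh encodes xanthine dehydrogenase, the enzyme that oxidises hypoxanthine to xanthine and xanthine to urate at the end of purine breakdown. Where the enzyme is missing, xanthine builds up, and it dissolves poorly and can crystallise in the urine. The days after birth are the time in which the rat kidney completes its nephrons and its tubules take on adult transport and metabolism. An injured tubule cell is known to switch on a set of surface and secreted proteins, among them the products of Havcr1, Lcn2, Mmp7, Clu and Spp1, and to lower its transport and metabolic genes.

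Of 32545 genes in the table, 14453 had at least 1 FPKM in 3 or more of the 8 libraries and were tested. Of these 2393 were called (16.6%), 1129 higher in Homo (7.81%) and 1264 lower (8.75%), and the median difference of all tested genes was 0.01. The shares of 7.81% and 8.75% are the background for every list count below. In 1642 tested genes (11.4%) all Homo libraries lay above all Het libraries, and in 1897 (13.1%) all lay below, so a lack of overlap is common. Between 13364867 and 16683287 reads were recovered for each of the 8 libraries. Summed FPKM was 501663 to 541866 in Homo and 559956 to 602576 in Het, and the mitochondrial genome took 5.31% to 7.2% of reads in Homo and 8.15% to 10.1% in Het. Scaling every library to the same sum (TPM) moved the median from 0.01 to 0.14 and gave 3192 calls. Of these 76.7% were higher in Homo, against 47.2% with FPKM. The balance of calls between directions, and the direction of the smallest differences, thus depend on the scaling. All 2393 genes called with FPKM kept their direction with TPM, and 1872 kept their call. Het replicate 2 stood apart, with a mean correlation of 0.9602 with the other Het libraries, where the other 3 Het libraries had 0.9714 to 0.9721. Its title number is 54, next to the 55 to 58 of 4 PND21 libraries. What title numbers stand for is not stated, and whether this library's age label holds was not tested. The Homo libraries have title numbers 61, 63, 64 and 68 and the WT libraries 60, 62, 65 and 66. The Het libraries have 48, 54, 67 and 98, so only Het replicate 3 lies within that run. Whatever the numbers stand for can hardly be told apart from genotype in this comparison. Without Het replicate 2, 2180 genes were called. The count was 871, 759, 1336 and 629 without Het replicate 1 and Homo replicates 1, 2 and 3 in turn. All of the 2393 genes that were still tested kept their direction in each of these fits. Replicate numbers are names in record order, and p-values measure the spread between these libraries. In RNA from whole cortex, fewer cells of a type and less RNA per cell cannot be told apart.

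**Figure D1:**
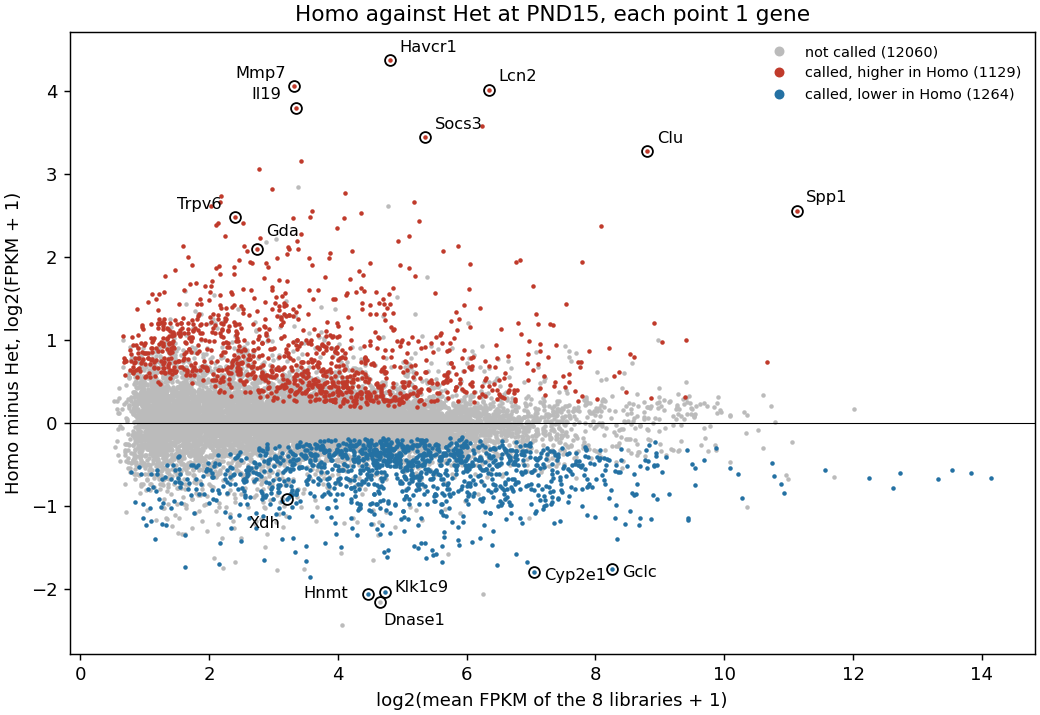
Difference between Homo and Het (log2(FPKM + 1), vertical axis) against the log2 of the mean FPKM + 1 of the 8 libraries (horizontal axis), each point 1 of the 14453 tested genes at PND15. Red points are the 1129 called genes higher in Homo and blue points the 1264 called genes lower, grey points were not called, and ringed genes are named in the text. The largest rises (Havcr1, Mmp7, Lcn2) exceed the largest falls in size.

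Sequences are shown for 2 interleukin and 2 fibrinogen genes, which are among the 12 largest rises on the log2(FPKM + 1) scale. The windows are printed as a description, and no result rests on them. Il19 and Il24 lie next to each other on chromosome 13 and encode cytokines that signal through STAT3, and Fgb and Fgg lie on chromosome 2 and encode chains of fibrinogen, which are known STAT3 targets in liver. The 250 bases before each start are printed 5′ to 3′ on the strand of the gene, from RefSeq on build GRCr8. They are chr13:44958715-44958964 (minus strand) for Il19, chr13:44910761-44911010 (minus) for Il24, chr2:170700876-170701125 (minus) for Fgb and chr2:170652833-170653082 (plus) for Fgg. Capitals mark matches to TTCNNNGAA, the letters that STAT proteins are known to bind, searched on both strands.
Il19: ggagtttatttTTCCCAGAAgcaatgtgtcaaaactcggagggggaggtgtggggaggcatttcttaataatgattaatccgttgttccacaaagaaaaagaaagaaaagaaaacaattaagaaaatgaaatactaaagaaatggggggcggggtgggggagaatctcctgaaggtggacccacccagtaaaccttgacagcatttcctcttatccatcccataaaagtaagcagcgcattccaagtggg
Il24: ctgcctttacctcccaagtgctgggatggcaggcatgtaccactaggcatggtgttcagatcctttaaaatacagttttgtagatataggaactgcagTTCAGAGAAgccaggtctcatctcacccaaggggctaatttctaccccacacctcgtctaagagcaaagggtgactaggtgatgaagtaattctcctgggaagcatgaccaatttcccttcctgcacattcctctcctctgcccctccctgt
Fgb: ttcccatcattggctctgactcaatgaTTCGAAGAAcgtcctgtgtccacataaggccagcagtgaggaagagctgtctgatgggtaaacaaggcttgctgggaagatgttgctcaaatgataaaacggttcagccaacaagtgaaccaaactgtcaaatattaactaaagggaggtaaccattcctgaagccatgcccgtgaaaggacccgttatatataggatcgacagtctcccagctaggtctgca
Fgg: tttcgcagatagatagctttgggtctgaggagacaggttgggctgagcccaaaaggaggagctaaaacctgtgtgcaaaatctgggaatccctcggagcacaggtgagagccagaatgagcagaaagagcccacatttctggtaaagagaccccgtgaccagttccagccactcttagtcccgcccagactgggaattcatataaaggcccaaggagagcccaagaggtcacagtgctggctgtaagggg
The match begins 239 bases before the start in Il19, 152 in Il24 and 223 in Fgb, and these letters are not in the Fgg window. Of all 33469 RefSeq promoters of this length, 7.67% hold a match. The windows of Havcr1, Lcn2, Mmp7, Socs3 and Sfn, other genes with large rises, hold none. Only 67.1% of the tested genes had a promoter in the table (9691 of 14453, below the 80% needed), so a comparison of motif shares between genes that rose and fell is void.

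Xdh itself (ENSRNOG00000007081; chromosome 6, 25149235 to 25211494, minus strand, in the coordinates of the deposited table, of unstated build) is given first, as a check of the labels. Its level was 6.46, 4.95, 8.03 and 2.87 FPKM in Homo replicates 1 to 4 and 8.95, 13.2, 11.2 and 10.4 in Het replicates 1 to 4. All 4 Homo libraries lay below all 4 Het libraries, though the highest Homo library and the lowest Het library differed by less than the SD of either group. The means were 5.58 ± 2.2 in Homo, 10.9 ± 1.78 in Het and 15.7 ± 1.88 in WT, so transcript remained at 0.51 times the Het level. The difference was -0.91 ± 0.24 (limma adjusted p = 0.0387), and a two-sided exact permutation test gave p = 0.0286, the smallest that 4 against 4 libraries allow (0.0286 adjusted over 5 genes). The call was lost when any 1 Het library was left out (adjusted p = 0.0664 to 0.0744 in limma) and without Homo replicate 1 (0.0718) or 2 (0.0869), with differences of -1 to -0.83. The PND5 levels of Xdh were 0.667 ± 0.344 FPKM (Homo) and 2.93 ± 0.765 (Het), 4 libraries each. At PND21 it was 16 ± 2.32 in 3 Homo libraries and 13.2 ± 3.43 in 4 Het libraries, so the order of the means at PND15 was not that at PND21. The PND21 groups overlapped, and their difference of 0.29 ± 0.19 was not called (limma adjusted p = 0.254). Nor was the change of the Xdh difference from PND15 to PND21, 1.2 ± 0.34 (limma adjusted p = 0.105).

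Havcr1, which encodes KIM-1, the phosphatidylserine receptor that injured proximal tubule cells place on their surface, had the largest called rise on the log2(FPKM + 1) scale, though not by ratio, where Mmp7 was higher. It measured 95.1, 37.3, 49 and 29.2 FPKM in the Homo libraries and 1.93, 0.833, 1.36 and 1.37 in the Het libraries (ENSRNOG00000007243; chromosome 10, 31813814 to 31848379, plus strand). Every Homo library was far above every Het library, and the WT level of 1.21 FPKM was like that of Het. The difference was 4.37 ± 0.33 (limma adjusted p = 0.00586), a 38.3-fold ratio of means.

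Lcn2, the gene of the iron-siderophore binding protein NGAL, released by injured tubules and by neutrophils, measured 197, 141, 218 and 56.4 FPKM in Homo and 9.4, 4.7, 8.37 and 8.12 in Het (ENSRNOG00000013973; chromosome 3, 11414186 to 11417546, minus strand). Homo replicate 4 was the lowest of its group and was still above every Het library. The difference was 4.02 ± 0.4 (limma adjusted p = 0.00586).

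Mmp7 encodes matrilysin, a matrix metalloproteinase and a target of Wnt signalling in injured tubules. It measured 21.8, 18.5, 25.3 and 6.14 FPKM in Homo, against 0 in 3 Het libraries and 0.0676 in Het replicate 3 (ENSRNOG00000010507; chromosome 8, 5893249 to 5901049, plus strand). Recovered reads were 1150 in Homo and 1 in Het. Per read of depth the ratio was 1080 (95% interval 193 to 42500, counting error only). Its difference was 4.06 ± 0.37 (limma adjusted p = 0.00586).

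Dnase1, the gene of a secreted endonuclease that the tubule makes as it matures, pointed the other way but was not called. It measured 2.31, 8.41, 4.55 and 11 FPKM in Homo and 24.6, 111, 16.7 and 15.3 in Het (ENSRNOG00000006873; chromosome 10, 11757682 to 11760620, minus strand). The groups did not overlap, yet the Het mean of 41.8 ± 46 was set by Het replicate 2, whose 111 FPKM lay within the range of the PND21_Het libraries. The difference was -2.16 ± 0.64 (limma adjusted p = 0.0531) and -1.53 without Het replicate 2 (0.0544). It passed the threshold without Homo replicate 4 (0.0452), with TPM (0.0492), with array weights (-1.54, 0.0458) and with all 12 PND15 libraries (0.0171) or all 44 (0.000846) in the fit. For Havcr1, Mmp7, Lcn2 and Dnase1 the two-sided exact permutation p was 0.0286, the smallest possible, and 0.0286 adjusted over the 5 genes. Any gene whose groups do not overlap reaches this p. That held with Homo higher in 11.4% of all tested genes and with Homo lower in 13.1%.

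**Figure D2:**
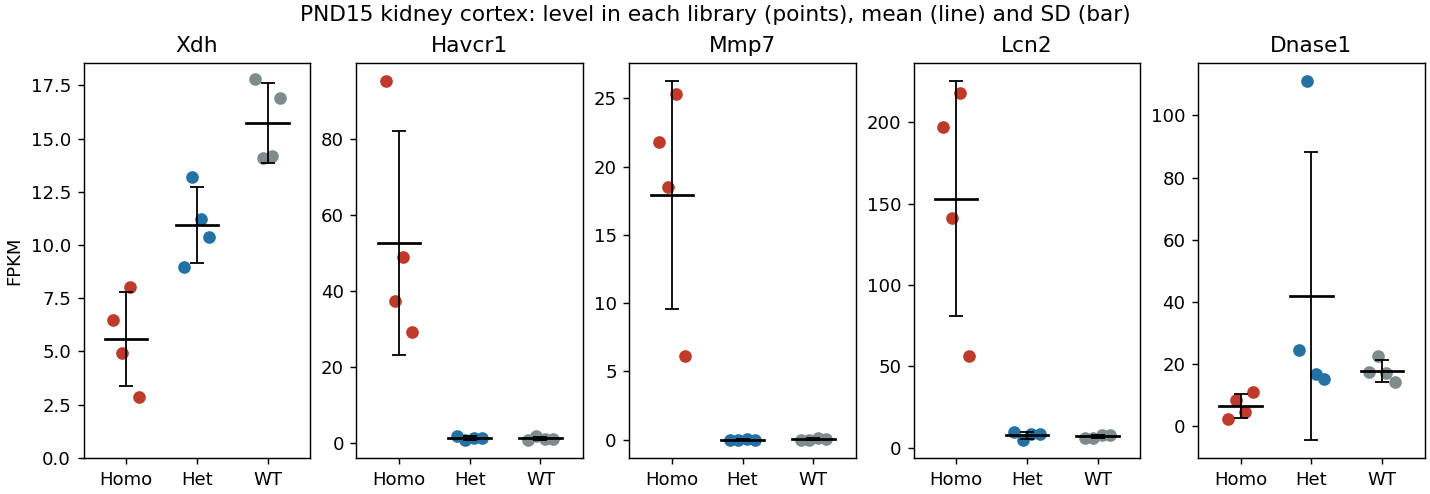
FPKM (vertical axis, linear, a scale for each gene) of Xdh and the 4 marker genes in the 4 libraries of Homo, Het and WT at PND15. Points are libraries, lines are group means and bars are SDs. Havcr1, Mmp7 and Lcn2 are high in all 4 Homo libraries, Xdh is lowest in Homo, and 1 Het library sets the spread of Dnase1.

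The list of tubular injury and repair genes rose broadly. Of 46 tested members 34 rose and 0 fell, beside 7.81% of all tested genes that rose, and the median difference was 1.09 against 0.01 for all genes. A gene that is low in Het could enter the tested set through Homo alone, which raises counts of rises. Of the injury members, 40 would have passed the filter on the Het libraries alone, and 28 of these rose. Over all tested genes 13522 would have passed in that way, and 6.8% of these rose. Spp1, which encodes osteopontin, a urinary phosphoprotein that binds crystals and attracts macrophages, went from 614 ± 44.7 FPKM in Het to 3840 ± 1510 in Homo (2.56 ± 0.25, limma adjusted p = 0.00586). Its 4 Homo libraries measured 5860, 3410, 3850 and 2230 FPKM, and no Het library passed 655. Clu, the gene of the chaperone clusterin, rose from 71.3 ± 9 to 818 ± 578 FPKM. In Homo replicate 1 Clu reached 1670 FPKM, and the other 3 Homo libraries were at 415 to 690, against 62 to 81.9 in Het. Krt17, an epithelial keratin, went from 0.0926 ± 0.0664 to 7.04 ± 4.42 FPKM, and the simple-epithelium keratins Krt8, Krt18, Krt7 and Krt19 rose too. Sfn, which encodes 14-3-3 sigma, an epithelial checkpoint protein, rose from 10.4 ± 4.6 to 139 ± 73.9 FPKM (3.58 ± 0.36, limma adjusted p = 0.00586). Sox9, a transcription factor of regenerating tubule cells, rose from 0.873 ± 0.227 to 5.41 ± 2.16 FPKM. Members that were not called include Vim (241 against 141 FPKM, limma adjusted p = 0.0763) and Plau (478 against 420, 0.224).

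Beyond that list, fibrinogen and interleukin genes were among the 12 largest rises. Fgg measured 33.4, 17.8, 13 and 9.72 FPKM in Homo and 0.654, 1.93, 0.682 and 0.859 in Het, and Fgb 54.5, 23, 21.4 and 18.5 against 1.98, 4.06, 3.01 and 3.46. In both genes Homo replicate 1 was the highest and no Homo library reached down to the Het range. The third chain gene, Fga, went from 9.83 ± 0.877 to 57.2 ± 35.7 FPKM (2.25 ± 0.34, limma adjusted p = 0.0125). These 3 genes are also the only rising members of the liver list (3 of 9 tested), whose member Ambp, the gene of a precursor of alpha-1-microglobulin, fell, a call lost without Het replicate 1 or Homo replicate 1. Il19 measured 31.3, 13.2, 22.5 and 6.08 FPKM in Homo and 0.383, 0.134, 0.142 and 0.14 in Het, with 558 recovered reads against 6. Its neighbour Il24 measured 16.5, 8.87, 13.9 and 5.84 against 0.349, 0.428, 0.584 and 0.191. The order of the Homo libraries was the same in both interleukin genes, with replicate 1 highest and replicate 4 lowest. Tac3, which encodes the peptide neurokinin B, rose from 0.787 ± 0.654 to 13 ± 7.68 FPKM.

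Genes of inflammatory signalling rose as well. In the NF-kB and STAT3 list 25 of 47 tested members rose and 2 fell, with a median of 0.62. Of the 25, 1 passed the filter through Homo and not on Het alone. Socs3, the feedback inhibitor that STAT3 induces, measured 117, 59.9, 88.5 and 33.3 FPKM in Homo and 6.4, 5.09, 5.14 and 4.53 in Het (3.45 ± 0.34, limma adjusted p = 0.00586). Homo replicate 1 was again the highest and replicate 4 the lowest, and all were clear of Het. The receptor subunit gene Osmr and Stat3 itself, named outside the naming rule after their values were seen, rose from 7.03 to 27.3 and from 48.7 to 86.6 FPKM. Bcl3 and Nfkbiz, nuclear IkB proteins, rose 4.93-fold and 4.7-fold. The 2 members that fell were Lifr, the receptor of leukaemia inhibitory factor, and Tlr3, a sensor of double-stranded RNA, and neither was called without Het replicate 1, 3 or 4 or Homo replicate 1, 2 or 3. The count of rises was 11, 11 and 12 without Het replicate 1, Homo replicate 1 and Homo replicate 3 in turn.

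Of 29 tested cytokine and chemokine genes, 16 rose and 0 fell, but 11 of the 29 passed the filter through Homo and not on Het alone, 9 of the 16 rises among them. Of the 18 that would have passed on Het alone, 7 rose. Ccl2, the monocyte attractant, went from 2.63 ± 1.03 to 17 ± 6.2 FPKM, and Lif from 0.853 ± 0.141 to 6.09 ± 2.26. Il1rn, the interleukin 1 receptor antagonist, rose 11.1-fold (2.26 ± 0.2, limma adjusted p = 0.00586). Cxcl6, a neutrophil attractant, was at 6.95, 6.42, 9.91 and 1.33 FPKM in Homo and at 0, 0, 0 and 0.0454 in Het, with 572 recovered reads against 1. Il33, an alarmin, had 63 and 64.5 FPKM in the 2 groups and was not called. The count was 7, 6, 8 and 6 without Het replicate 1 and Homo replicates 1, 2 and 3, and 4 where only genes with a mean of at least 5 FPKM were tested.

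Sensors of crystals and danger form a list of their own, of which 9 of 19 tested members rose, and 5 of the 14 that would have passed the filter on Het alone. Il1b went from 0.739 ± 0.299 to 5.91 ± 3.13 FPKM, and Nlrp3, the inflammasome receptor that crystals are known to trigger, from 0.761 ± 0.306 to 2.47 ± 0.84. Pycard, its adaptor, measured 7.84, 6.58, 7.1 and 5.6 FPKM in Homo and 2.69, 1.99, 3.49 and 3.58 in Het, with no overlap. Txnip and Nek7, partners of the same receptor, were not called (263 against 267 FPKM and 35.1 against 34.3). The count was 3 without Het replicate 1 and without Homo replicate 1, 2 or 3, 5 without Het replicate 3, 14 with TPM or all PND15 libraries, 15 with all 44 and 2 with a mean of at least 5 FPKM. Among crystal-binding and urinary matrix proteins 6 of 16 tested members rose (Anxa1, Anxa2, Cd44, Lgals3, Mgp and Spp1) and 1 fell (Ambp). Beside these counts, 7.81% of all tested genes rose and 8.75% fell.

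Immune cell markers moved with these genes, and their part in the results above was not tested. Of 29 tested macrophage and dendritic cell genes 26 rose and 0 fell (22 of the 24 that would have passed the filter on Het alone), with the highest median of all 46 lists, 1.3. Their summed level was 305 to 842 FPKM in Homo, 134 to 216 in Het and 175 to 186 in WT. The complement gene C1qa measured 54.2, 47, 70.2 and 23.4 FPKM in Homo and 9.38, 9.67, 12.8 and 14.6 in Het (1.9 ± 0.31, limma adjusted p = 0.0134). Homo replicate 3 was the highest and replicate 4 the lowest of the group, and the groups did not overlap. Cd14 and Mpeg1 rose 2.18-fold and 3.62-fold, and Clec9a, a marker of cross-presenting dendritic cells, was not called (2.01 against 1.64 FPKM). The count was 17, 11 and 13 without Het replicate 1, Homo replicate 1 and Homo replicate 3, and 17 with a mean of at least 5 FPKM.

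Lymphocyte genes were near the floor. Of 12 tested members 7 rose, but 9 of the 12 passed the filter only through Homo, 6 of the rises among them. Cd3e, part of the T cell receptor complex, measured 1.75, 1.04, 2.67 and 0.779 FPKM in Homo and 0.18, 0.142, 0.201 and 0.197 in Het. The count was 1 without Het replicate 1, Homo replicate 1 or Homo replicate 3, 2 without Homo replicate 2, 3 without Het replicate 2, 3 or 4, 4 with voom on recovered reads and 1 with a mean of at least 5 FPKM. Only 6 of 24 neutrophil and mast cell genes were tested, and Csf3r and Fcnb rose, which both passed the filter through Homo and not on Het alone. Of the 4 that would have passed on Het alone, 0 were called by limma. Their summed level was 41.6 to 61.6 FPKM in Homo and 32.5 to 59.1 in Het, and the count was 0 without Het replicate 1 or Homo replicate 1, 2 or 3. Mmp9, a protease of neutrophils that is also made by other cells, was 12.8 against 13.9 FPKM and not called (0.29 ± 0.64). Het replicate 2 was at 1.35 FPKM, and without it the difference of Mmp9 was -0.46 (limma adjusted p = 0.0477).

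In the complement and coagulation list 21 of 36 tested members rose and 0 fell, with a median of 1.03. Of the 21, 3 passed the filter through Homo and not on Het alone. Besides the fibrinogen genes, the rises included complement genes and Plaur, the urokinase receptor. Plaur measured 10.7, 6.43, 8.72 and 5.07 FPKM in Homo and 1.64, 2, 2.2 and 1.29 in Het. In antigen presentation and interferon response 16 of 35 rose and 0 fell, led by the immunoproteasome subunit genes Psmb10 (15.4 to 40.8 FPKM), Psmb9 (4.73 to 14.4) and Psmb8 (0.709 to 2.72). Of these 16, 3 passed the filter through Homo and not on Het alone. The class II genes Cd74 (limma adjusted p = 0.08) and RT1-Da (52.9 against 24.6, 0.0561) were not called, and reads of the RT1 family are shared between close copies. Without Het replicate 1 and Homo replicates 1, 2 and 3 the antigen presentation count was 10, 8, 10 and 4.

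Among fibroblast and matrix genes, 13 of 47 tested members rose, beside 7.81% of all tested genes, and 0 fell, with a median of 0.66. Thbs1, the matrix protein thrombospondin 1, rose from 55.5 ± 4.41 to 128 ± 47.3 FPKM and Pdgfra, a fibroblast receptor, from 40.1 ± 7.4 to 66.4 ± 6.62. Sparc and Col4a1 were not called (1020 against 877 FPKM and 444 against 358). In the smooth muscle list Acta2, the actin of smooth muscle and myofibroblasts, went from 76.5 ± 27 to 191 ± 58.3 FPKM, and it rose with Tagln, Cnn1, Des and Rgs5 (5 of 18), while Agtr1a, the angiotensin receptor, fell, a call lost when any 1 library other than Het replicate 2 was left out. The matrix count was 5, 4, 6, 3 and 7 without Het replicate 1, Homo replicates 1, 2 and 3 and Het replicate 3, 8 with no filter, 20 with all PND15 libraries and 30 with all 44. The smooth muscle count was 2 without Het replicate 1, Homo replicate 1 or Homo replicate 3. Het replicate 2 had the lowest mean level of the matrix list, 0.54 log2 units below the Het mean.

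**Figure D3:**
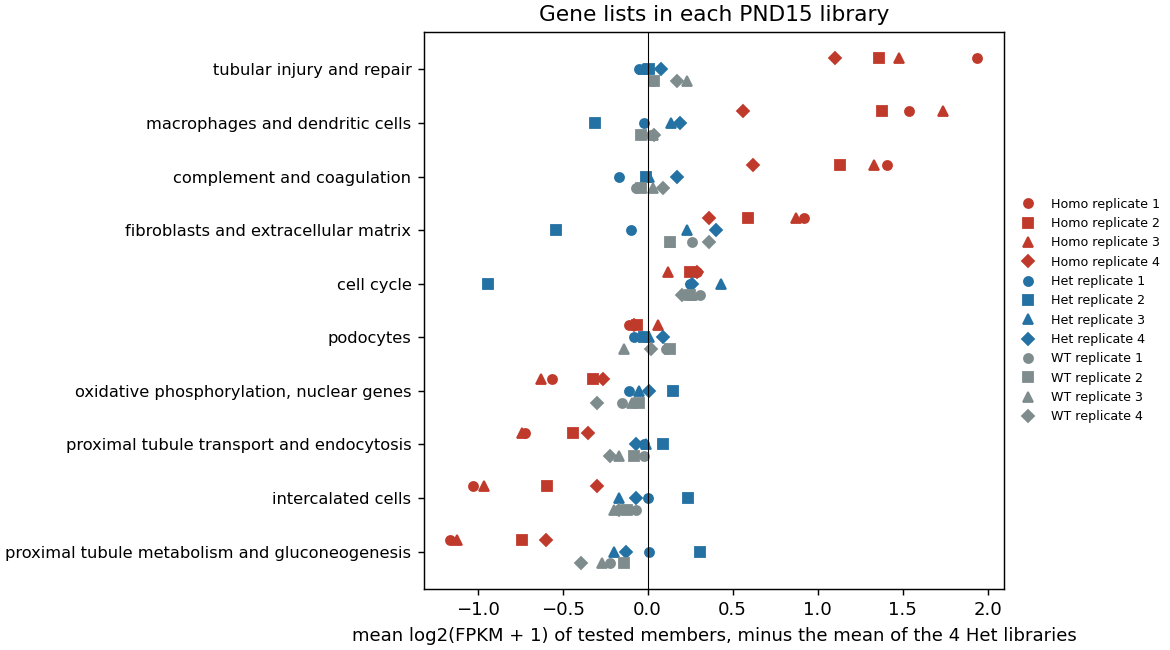
Mean log2(FPKM + 1) of the tested members of 10 gene lists in each PND15 library, minus the mean of the 4 Het libraries (horizontal axis, log2 units), with colours for genotype and symbols for replicate. Injury, macrophage and complement lists lie to the right in all 4 Homo libraries and proximal tubule metabolism to the left, Homo replicate 4 lies nearest to Het in most of these lists, and Het replicate 2 lies alone at -0.94 in the cell cycle list.

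The metabolism of the proximal tubule, the segment that reclaims most of the filtrate and makes glucose, was widely lowered. Of 53 tested members 41 fell and 0 rose, beside 8.75% of all tested genes that fell, with a median of -0.91. Pck1, the key enzyme gene of gluconeogenesis, named after its values were seen, measured 351, 551, 309 and 481 FPKM in Homo and 1270, 627, 923 and 1010 in Het. Homo replicate 2 and Het replicate 2 came closest, and the groups did not overlap. Acy3, an aminoacylase, measured 50.4, 59.3, 41.2 and 77.6 FPKM in Homo and 260, 205, 129 and 154 in Het (-1.68 ± 0.25, limma adjusted p = 0.0125). Cyp2e1, the ethanol-inducible cytochrome, fell from 210 ± 139 to 53.4 ± 13.3 FPKM, where Het replicate 2 alone was at 412. Kynu, of tryptophan breakdown, and Cndp1, a carnosinase, fell to 0.516 and 0.569 times the Het level. Gatm, of creatine synthesis, was not called (778 against 888 FPKM). The count was 25, 23 and 20 without Het replicate 1, Homo replicate 1 and Homo replicate 3.

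Transport and endocytosis genes of the same segment fell in 25 of 45 tested members and rose in 0, with a median of -0.66. Slc34a1, the main renal phosphate transporter, measured 618, 976, 746 and 1160 FPKM in Homo and 1680, 1450, 1590 and 1640 in Het (-0.9 ± 0.18, limma adjusted p = 0.0179). Its 4 Het libraries lay close together, and the Homo libraries were spread over a wide range below them. Lrp2, the endocytic receptor megalin, fell from 232 ± 19.2 to 155 ± 21.8 FPKM, and the sulfate transporter Slc26a1 from 43.1 ± 1.46 to 27.1 ± 3.51. Dab2, the adaptor that works with megalin, had 220 against 197 FPKM and was not called, nor was the peptidase gene Anpep (157 against 255, limma adjusted p = 0.0704). The count was 15, 16 and 14 without Het replicate 1, Homo replicate 1 and Homo replicate 3.

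Urate and organic ion transporters, which carry the product of Xdh and related anions, fell in 16 of 29 tested members and rose in 0. Slc22a12, the urate reabsorber URAT1, named after its values were seen, went from 155 ± 34.4 FPKM in Het to 53.4, 81.3, 56.5 and 92 in the Homo libraries (-1.14 ± 0.21, limma adjusted p = 0.0158). Slc22a8 and Slc22a13, an organic anion transporter and a carrier of urate and nicotinate, fell to 0.539 and 0.352 times the Het level. Slc5a8, a lactate and short-chain fatty acid carrier, measured 11.5, 15.2, 10.1 and 16.2 FPKM in Homo and 42.7, 37.8, 30.6 and 28.8 in Het, with no overlap. Slco1a6, an organic anion carrier whose reads may be shared with close Slco1a copies, was at 44.7 ± 27.7 FPKM in Homo, a difference of -1.71 ± 0.38. Slc2a9 and Abcg2, 2 further urate transporters named after their values were seen, were not called (2.75 against 3.07 FPKM and 30.1 against 35.2). The count was 9 without Homo replicate 3.

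In purine breakdown and salvage, the pathway of Xdh, 9 of 33 tested members fell, beside 8.75% of all tested genes. Of the 33, 2 rose, beside 7.81%, and the median of -0.08 was near that of all genes. Gda, guanine deaminase, which makes xanthine from guanine, was the larger of the 2 rises. It measured 12.7, 10.4, 14.4 and 2.68 FPKM in Homo and 0.963, 1.27, 1.12 and 1.76 in Het (2.1 ± 0.42, limma adjusted p = 0.017). Homo replicate 4 was well below the other Homo libraries and still above Het. Mtap, which cleaves methylthioadenosine, rose from 5.82 ± 0.524 to 7.73 ± 0.365. The rises numbered 0 without Homo replicate 1 or 3 and 1 without Het replicate 1 or Homo replicate 2. The falls were Xdh, Urad (of the uricase branch that leads on from urate), Nt5e, Enpp1, Entpd5, Adk, Ahcy, Slc28a1 and Slc29a3, and the count of falls was 5 without Het replicate 1. Nt5e, the ectoenzyme CD73, measured 15.6, 18.4, 14.8 and 20.6 FPKM in Homo and 33.5, 28.2, 29.1 and 27.7 in Het. Of the salvage enzymes, Adk fell as listed, while Aprt and Pnp were not called: Aprt was 260 against 219 FPKM (limma adjusted p = 0.0696) and Pnp 107 against 101 (0.667). Of 20 purine synthesis genes, 4 fell, beside the same 8.75%, among them Ppat, of the first step of the pathway. The count was 0 without Het replicate 1, Homo replicate 1 or Homo replicate 3, 2 without Het replicate 2, Het replicate 4 or Homo replicate 2, and 1 with TPM or with no filter.

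Energy genes fell together. In fatty acid oxidation and peroxisome 29 of 47 tested members fell, and 1 rose, the cytochrome gene Cyp4a8, whose reads may be shared with close Cyp4a copies and whose call was lost without Homo replicate 2 or 3 or Het replicate 1, 3 or 4. Acadm, which starts the oxidation of medium-chain fatty acids in mitochondria, fell from 205 ± 25.1 FPKM to 0.566 times that level. Of 40 nuclear genes of oxidative phosphorylation 25 fell and 0 rose, but the falls were small, with a median of -0.43. Ndufs8, of complex I, went from 172 ± 12.8 to 128 ± 11.3 FPKM. In 13 protein genes of the mitochondrial genome, where poly-A libraries capture mature transcripts, 10 fell and 0 rose. Mt-nd1 measured 3240, 4170, 3210 and 4500 FPKM in Homo and 6600, 5780, 5740 and 5530 in Het. These 3 counts leaned on single libraries: without Het replicate 1, Homo replicate 1 and Homo replicate 3 they were 12, 7 and 8 for fatty acid oxidation, 2, 1 and 1 for the nuclear genes and 4, 2 and 2 for the mitochondrial genome. Without Het replicates 3 and 4 they were 19 and 19 for fatty acid oxidation and 16 and 14 for the nuclear genes. With no filter fatty acid oxidation gave 19 and the nuclear genes 13, and TPM gave 13 for the nuclear genes.

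The segments after the proximal tubule were lowered too. Among intercalated cell genes, which secrete acid or base in the collecting duct, 14 of 20 tested members fell and 0 rose, with a median of -0.83. Atp6v0a4, a proton pump subunit, measured 82.5, 110, 88.9 and 127 FPKM in Homo and 204, 205, 176 and 185 in Het (-0.93 ± 0.13, limma adjusted p = 0.012). Rhbg, an ammonium transporter, fell to 0.502 times the Het level, while Foxi1, the transcription factor of these cells, was not called (15.7 against 21.2 FPKM, 0.058 in limma). The intercalated count was 4, 7, 9 and 4 without Het replicate 1 and Homo replicates 1, 2 and 3. In principal cells 7 of 20 fell, among them the sodium channel subunits Scnn1b (26.6 to 15.5 FPKM) and Scnn1g (22.3 to 12.6), and Elf3, an epithelial transcription factor, rose from 30.4 to 64.1, a call lost without Het replicate 1 or Homo replicate 3. Aqp2, their water channel, had 69.4 ± 30 FPKM in Homo and 179 ± 153 in Het, where Het replicate 2 alone was at 408, and was not called.

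The thick ascending limb, which dilutes the urine, lost 8 of 19 tested members and gained 0. Slc12a1, its sodium carrier, went from 392 ± 55.2 to 258 ± 16.8 FPKM, and Kcnj1, its potassium channel, changed by -0.79 ± 0.11 to 75.7 ± 9.57. Umod, uromodulin, overlapped between the groups (836 against 1010 FPKM) and was not called. In the distal convoluted tubule 4 of 20 fell, beside 8.75% of all tested genes, among them Slc12a3, the thiazide-sensitive carrier, and S100g, a calcium-binding protein. S100g measured 2.73, 3.15, 3.36 and 5.05 FPKM in Homo and 11.1, 39.2, 11.9 and 10.2 in Het. Trpv6, an epithelial calcium channel, moved the other way, at 15.9, 5.79, 7.02 and 3.85 FPKM in Homo and 0.578, 0.608, 0.361 and 0.329 in Het (2.48 ± 0.34, limma adjusted p = 0.0115). Counts for the ascending limb were 4, 5 and 4, and for the distal tubule 2, 2 and 1, without Het replicate 1, Homo replicate 1 and Homo replicate 3, and the distal count was 2 without Het replicate 3 and 7 with all 44 libraries. The principal cell count was 12 with all 44.

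Glomerular and vascular lists had small counts of calls. In podocytes 2 of 25 tested members fell (Rhpn1 and Vegfa), beside 8.75% of all genes, and 0 rose, with a summed level of 978 to 1070 FPKM in Homo and 921 to 1050 in Het. In endothelium 3 of 23 fell (Emcn, Plvap and Tek), and 2 rose, beside 7.81% of all genes (Selp and Icam1), adhesion molecules that inflamed vessels display. Selp passed the filter through Homo and not on Het alone. Icam1, which other cells make too, measured 49.8, 33.3, 45.5 and 22.3 FPKM in Homo and 11.5, 12.5, 12.5 and 12.5 in Het. Podocyte falls numbered 1 in 5 of the fits that left out 1 library and 4 without Homo replicate 4. The endothelial falls numbered 0 with TPM, with no filter and without Het replicate 3 or 4 or Homo replicate 1 or 2, and 1 without Het replicate 1 or 2 or Homo replicate 3.

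Redox genes split by kind. In the glutathione and NRF2 list 11 of 30 fell and 1 rose, Hmox1, heme oxygenase 1, a call lost without Het replicate 1 or 4 or Homo replicate 1, 2 or 3. Gclc, the catalytic subunit of the enzyme that limits glutathione synthesis, measured 94.3, 165, 80.5 and 250 FPKM in Homo and 553, 572, 377 and 355 in Het (-1.76 ± 0.35, limma adjusted p = 0.0173). Osgin1, a target of NRF2, fell from 39.9 ± 9.77 to 12.6 ± 4.69 FPKM. Cat, catalase, fell from 319 ± 44 to 147 ± 19.8. Gpx2, a glutathione peroxidase of epithelia, rose from 9.67 ± 2.64 to 49.2 ± 21. The antioxidant list had 6 rises and 5 falls in 28 tested members, beside 7.81% and 8.75% of all tested genes. Its rises included subunit genes of the phagocyte NADPH oxidase such as Cybb, Ncf1 and Ncf4. Of the 6 rises, 2 passed the filter through Homo and not on Het alone. The glutathione falls numbered 6, 6 and 7, and the antioxidant rises 1, 1 and 1, without Het replicate 1, Homo replicate 1 and Homo replicate 3, and the antioxidant falls 2, 2 and 2. The antioxidant rises were 3 without Het replicate 2, 3 or 4, 2 without Homo replicate 2, 10 with TPM, 2 with no filter, 3 with a mean of at least 5 FPKM and 3 with voom on recovered reads.

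Further genes stood among the 12 largest falls. Hnmt, which inactivates histamine by methylation, had the largest called fall on the log2(FPKM + 1) scale, though not by ratio, at 3.68, 8.37, 4.9 and 14.3 FPKM in Homo and 58.5, 28.9, 28 and 22.3 in Het (-2.06 ± 0.4, limma adjusted p = 0.0167). Homo replicate 4 was the nearest to Het. Klk1c9, a kallikrein whose reads may be shared with close Klk1c copies, fell from 41.4 ± 17.4 to 9.69 ± 4.79 FPKM. Mep1b, the brush border protease meprin beta, Slc22a22, an organic anion transporter, and Etnppl, which degrades phosphoethanolamine, fell to 0.353, 0.169 and 0.247 times the Het level.

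Genes of the cell cycle were not called in either direction, 0 of 49 by limma (median 0.23), and Het replicate 2 was 0.94 log2 units below the Het mean for this list. In cell death 11 of 30 rose, among them Ripk3 (1.88 to 5.17 FPKM) and Casp12 (2.85 to 8.63), and 2 fell. In the DNA damage response 5 of 25 rose, among them Fas, Gadd45g, Phlda3 and Pmaip1. Of all tested genes 7.81% rose and 8.75% fell. Of the DNA damage rises, 1 passed the filter through Homo and not on Het alone. The cell death rises were 1 without Homo replicate 1 or 3, 4 without Het replicate 1 or Homo replicate 2, and the DNA damage rises 0 without Het replicate 1 or Homo replicate 1 or 3, 1 without Homo replicate 2, 2 without Het replicate 3, 3 without Het replicate 4 and 10 with TPM. In the unfolded protein and integrated stress list 3 of 31 rose, near the share of all tested genes, and 1 fell, below that share. Hspa5, the main chaperone of the endoplasmic reticulum, was not called (288 against 251 FPKM). Those rises numbered 9 with TPM, 5 without Het replicate 3 or with array weights, and 1 with no filter, with a mean of at least 5 FPKM and without Het replicate 1 or 4 or Homo replicate 1, 2 or 3. Of the 3 rises in the main fit, 1 passed the filter through Homo and not on Het alone.

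The remaining lists had small counts of calls, to be set beside 7.81% of all tested genes that rose and 8.75% that fell. Falls in the hypoxia, renin angiotensin, vitamin D, erythroid and reference lists took larger shares than these. So did rises in the heat shock and renin angiotensin lists, and the calls of the adrenal and skeletal muscle lists, which had few tested members. Rises in the hypoxia list were near 7.81%. Hypoxia and glycolysis had 6 falls and 2 rises in 25 tested members, with Hk2 and Hif1a higher and glycolytic genes such as Eno1 and Pgk1 lower. Heat shock and immediate early genes had 6 rises, among them Atf3 (1.16 to 8.45 FPKM) and Egr2 (0.348 to 4.32), and 1 fall in 28. The renin angiotensin and kallikrein list had 2 rises and 4 falls in 17, vitamin D, phosphate and calcium hormones 1 and 4 in 18, and sterol synthesis 0 and 2 in 27. Nephron progenitors had 1 rise (Wnt4) and 2 falls (Cited1 and Crym) in 24, and the ureteric bud 1 (Sox9) and 1 (Slco4c1) in 20. Adrenal genes had 1 rise and 1 fall in 4, skeletal muscle 1 rise in 3, erythroid genes 3 falls in 11, and reference genes 1 rise (B2m) and 3 falls (Gapdh, Pgk1 and Sdha) in 16. Of the rises, 3 among heat shock and immediate early genes passed the filter through Homo and not on Het alone. So did 1 each in the hypoxia, vitamin D, ureteric bud and skeletal muscle lists. Without Homo replicate 3, hypoxia, sterol synthesis, erythroid, adrenal, skeletal muscle and reference genes had 0 calls each in limma, heat shock and immediate early genes 3 rises and 0 falls, the renin angiotensin list 0 rises and 2 falls, vitamin D 1 rise and 1 fall, nephron progenitors 0 falls and the ureteric bud 0 falls.

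**Figure D4:**
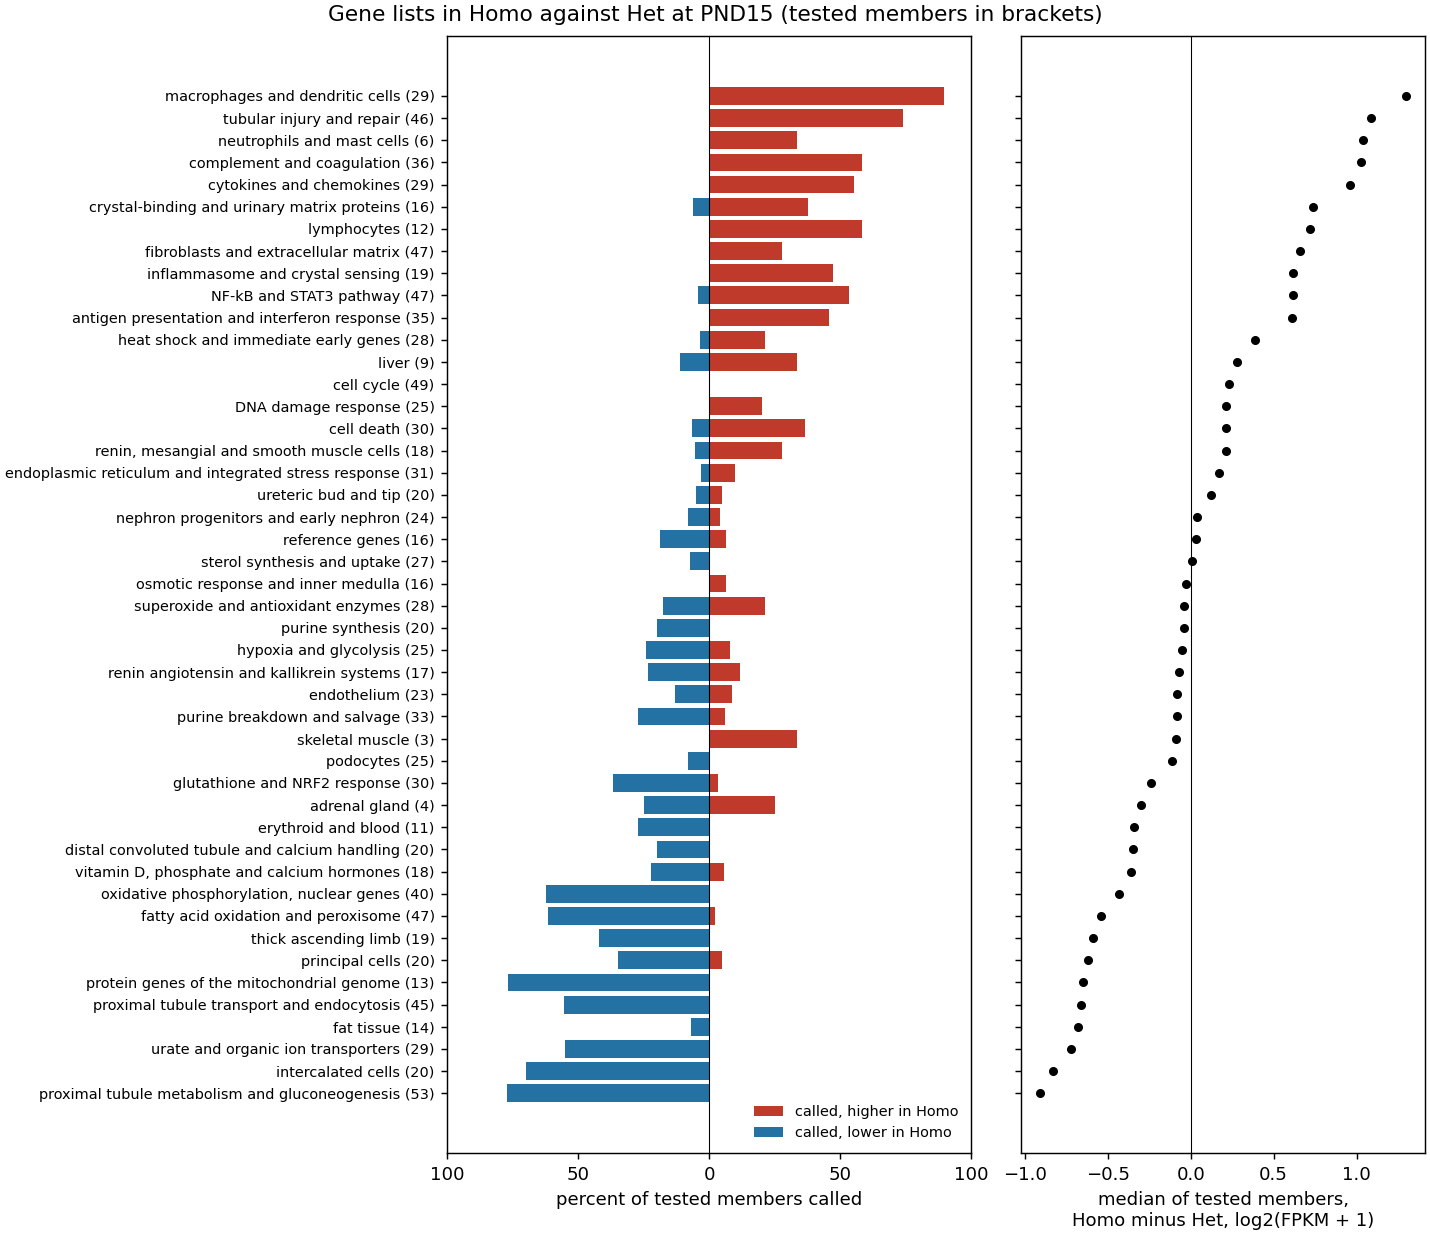
For each of 46 gene lists, the left panel gives the percent of tested members called higher in Homo (red, to the right) and lower (blue, to the left), and the right panel the median difference of tested members (log2(FPKM + 1)). Numbers in brackets are tested members. Macrophage and injury lists lie at the top (medians 1.3 and 1.09) and proximal tubule metabolism at the bottom (-0.91).

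A microRNA gene is also in the table. Mir21, named after its values were seen, measured 15.8, 17, 17.1 and 14.6 FPKM in Homo and 8.05, 9.24, 8.99 and 6.41 in Het (0.91 ± 0.11, limma adjusted p = 0.0101), with no overlap and little spread. Poly-A libraries do not read mature microRNAs, so these reads come from longer transcripts. Vmp1, which ends within 5000 bases upstream on the same strand, rose less, from 47.7 ± 4.11 to 69.9 ± 12 FPKM (0.53 ± 0.13, 0.0274 in limma), and whether the reads of Mir21 belong to its transcript was not tested. The mature product is shown because its seed defines its targets. It lies at chr10:71902653-71902674 (minus strand, RefSeq, GRCr8), with the seed, bases 2 to 8, in capitals.
rno-miR-21-5p: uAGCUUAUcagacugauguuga

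The libraries of each group were not alike in the size of these differences. Among the 1129 genes that rose, Homo replicate 1 was the highest Homo library in 622 and replicate 3 in 453, and replicate 4 was the lowest in 911. Among the 1264 that fell, Homo replicate 1 was the lowest in 652 and replicate 3 in 524, and replicate 4 was the highest in 868. Homo replicate 4 had the lowest Xdh (2.87 FPKM), and the lowest Havcr1, Mmp7 and Lcn2, of the 4. Het replicate 2 was the highest Het library in 737 of the genes that fell and the lowest in 575 of those that rose. Leaving out both Het replicate 2 and Homo replicate 4, a setting added once the data had been seen, gave 3253 calls.

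Het and WT differed little at this age. By limma 0 of 14264 genes were called between PND15_Het and PND15_WT, with 742 at an unadjusted p below 0.05 and 2 called with all 44 libraries in the fit. This comparison shares the Het libraries with the one above. For Xdh the step from WT (15.7 ± 1.88 FPKM) to Het (10.9 ± 1.78) was -0.49 ± 0.12 (limma adjusted p = 0.875). The injury list had a median of -0.11 between Het and WT, and proximal tubule metabolism 0.21.

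The age at which the difference appears was tested by its change between ages. At PND5 limma called 0 of 14246 genes between Homo and Het, with 485 at an unadjusted p below 0.05, and at PND21 it called 5928 of 14359 (41.3%). The change of the difference from PND5 to PND15 was called in 1705 of 15097 genes (11.3%), and that from PND15 to PND21 in 0.714% of 15116. Both tests of change share the 8 libraries at PND15. Havcr1 was 0.622 ± 0.244 FPKM in Homo and 0.748 ± 0.163 in Het at PND5, 52.6 ± 29.4 and 1.37 ± 0.447 at PND15, and 175 ± 69.7 (3 libraries) and 0.932 ± 0.282 at PND21. Its difference grew by 4.49 ± 0.37 from PND5 to PND15 (limma adjusted p = 0.000066), and its further growth of 2.08 ± 0.45 to PND21 was not called (0.0514). Mmp7 and Lcn2 grew by 4.19 ± 0.4 and 3.87 ± 0.48 from PND5 to PND15. The change for Xdh, 0.32 ± 0.33, was not called (0.59), nor was that for Dnase1, -2.45 ± 0.77 (0.0543). Of 47 injury genes tested for this change, 32 grew, and of 53 proximal tubule metabolism genes 34 had a difference that moved downward. Without single libraries the first count of 1705 was 815 to 2518, and it fell to 1130, 869 and 815 without Het replicate 1, Homo replicate 1 and Homo replicate 3 of PND15, to 1005 and 1104 without Het replicates 2 and 4 of PND5, and to 916 and 913 without Homo replicates 2 and 4 of PND5.

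Genes that change as the WT kidney matures were chosen from PND5_WT and PND21_WT alone, libraries outside the comparison. Between these groups limma called 6823 of 14134 genes (48.3%). There were 857 that rose and 586 that fell by at least 1 log2 unit. Of 826 maturation genes that rise with age and were tested here, 421 were lower in Homo (51%, beside 8.75% of all genes) and 28 higher, with a median of -0.6. Of 530 that fall with age, 22.5% were higher in Homo (beside 7.81% of all genes) and 0 lower, with a median of 0.4. Rising maturation genes made up 33.3% of the genes lower in Homo, beside 5.72% of all tested genes. Falling ones made up 10.5% of those higher, beside 3.67% of all tested genes. On a line from the mean of PND5_WT to that of PND21_WT, the Homo libraries stood at 29.4%, 39.6%, 29.8% and 44.2% of the way, the Het libraries at 67.8%, 81.5%, 58% and 58.6%, and the WT libraries at 57.6%, 58.1%, 52.5% and 48.8%. All 4 Homo libraries were behind all Het and WT libraries of the same age, and Het replicate 2 was ahead of the rest. Without Het replicate 2 the median of rising genes was -0.56, and 415 of them were lower in Homo. The count was 245 with TPM, and 208, 200 and 171 without Het replicate 1, Homo replicate 1 and Homo replicate 3.

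**Figure D5:**
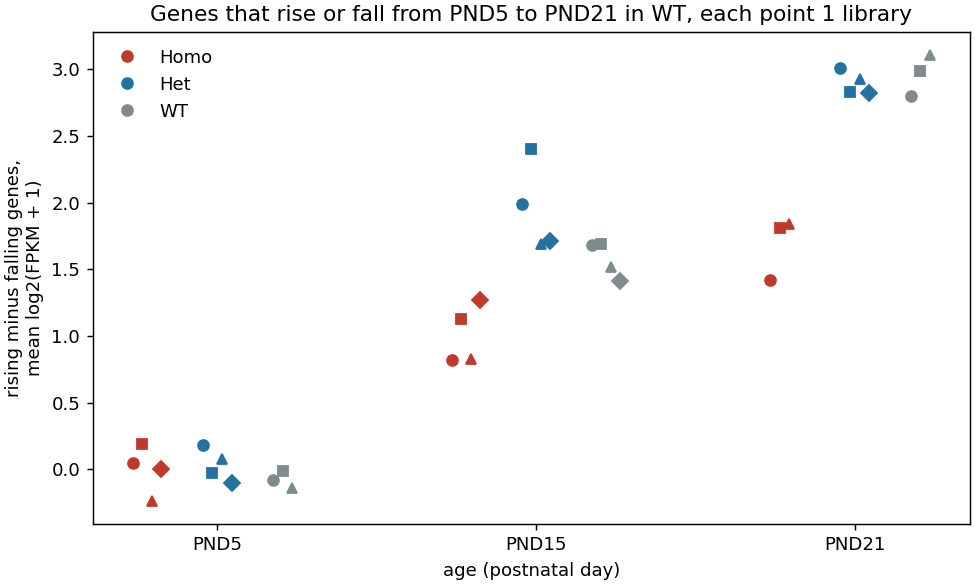
Mean log2(FPKM + 1) of the 857 genes that rise minus that of the 586 genes that fall from PND5 to PND21 in WT (vertical axis), by age (horizontal axis), each point 1 library. WT libraries at PND5 and PND21 chose the genes. At PND15 the 4 Homo libraries lie between 0.82 and 1.27, below the Het libraries (1.69 to 2.4) and the WT libraries (1.41 to 1.69).

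Markers of tissues that a dissected cortex can carry differed between single libraries. The fat list summed to 57.6 to 244 FPKM in Homo and 55.7 to 569 in Het, and 1 of its 14 tested members was called. The inner medulla list summed to 473 to 817 FPKM in Homo and 478 to 1710 in Het. Akr1b1, the osmotic aldose reductase, was at 341 FPKM in Het replicate 2 and 185 in Homo replicate 4, and at 32 to 54.5 in the other 6 libraries. Haemoglobin gene Hba1, whose reads may be shared with close Hba copies, was at 787 to 1840 FPKM in Homo and 1090 to 3020 in Het and was not called. The part of these tissues in the differences above was not tested, and Het replicate 2 and Homo replicate 4 were set aside together in the fit given before.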

How the data were processed

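FPKM values of 44 male rat kidney cortex libraries were deposited as 1 table. The submitters' processing notes name featureCounts 1.5.0-p3, StringTie 1.3.3b, HISAT2 2.0.5 and fastp, but not their roles. Per the labels' protocols, poly-A RNA was made into directional or non-directional libraries, without saying which, so reads of overlapping and antisense genes may mix. The deposited FPKM times gene length gave whole reads, within 0.01 read, in 100% of values. Replicates differed by 9.191 to 47.29 chi-square per degree of freedom over 12 pairs, more than counting error.

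Genes with at least 1 FPKM in 3 of the 8 libraries were tested with limma 3.58.1 (R 4.3.3, statmod 1.5.0) on log2(FPKM + 1), with trended and robust empirical Bayes. Named are Xdh, the 4 markers, the 12 largest called differences per direction (at least 5 FPKM, no overlap), up to 4 called and 2 uncalled members per list, and, by no rule, other genes chosen after their values were seen (those marked so, Casp12, Hk2, Hif1a, Vmp1, the keratins beside Krt17, and members named to spell out a small count). Of 1460 list entries in 46 lists, 1393 matched. The members and lists were chosen with earlier results of these data known. In data simulated for this comparison (14024 genes) 75% of 2-fold and 95% of 4-fold changes were recovered, and 4.49% of calls fell on unchanged genes. The simulation changed 200 genes and drew noise separately for each gene and library. Shifts shared by many genes of a library were not simulated, so these rates may not hold for the data. The alternatives were TPM, median ratios, voom on recovered reads, array weights, a pseudocount of 0.1, filters (none, or at least 5 FPKM on average), more libraries in the fit, only title numbers 60 to 69, and each library left out. Some genes that the naming rule selects are not reported here.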

Additional observations from a re-analysis of the deposited data

Results flagged for a closer look

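Among the 5 genes named first and the largest changes, 52 group values were examined for a library far from its group, and 8 stood out. Nominally, chance gives about 1 in 20 groups. Mmp7 was 0.0676 FPKM in Het replicate 3 and 0 in the other 3 Het libraries. Dnase1 was 111 FPKM in Het replicate 2 and 15.3 to 24.6 in the others. Il19 was 0.383 FPKM in Het replicate 1 and 0.134 to 0.142 in the others. Sfn was 250 FPKM in Homo replicate 1 and near the 99.9 of replicate 2 in the others, and Fgb 54.5 in Homo replicate 1 and 18.5 to 23 in the others. Fgg was 1.93 FPKM in Het replicate 2 and 0.654 to 0.859 in the others. Klk1c9 was 67.5 FPKM in Het replicate 1 and 31.9 to 33.7 in the others, and S100g 39.2 in Het replicate 2 and 10.2 to 11.9 in the others.

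The difference between Homo and Het changed from PND5 to PND15, by a test of that change in limma, for Havcr1 (4.49 log2 units), Mmp7 (4.19) and Lcn2 (3.87).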

How the results depend on the processing

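The count of 2393 called genes was 3928 with all 44 libraries in the fit and 0 with title numbers 60 to 69 only, which keeps Het replicate 3 as the single Het library, assumed to vary like the others. It was 629 to 2865 when 1 library was left out. With title numbers 60 to 69 only, the differences were 4.36 for Havcr1 (limma adjusted p = 0.236), 3.99 for Mmp7 (0.32), 3.87 for Lcn2 (0.32) and -0.95 for Xdh (0.39). Xdh also missed the threshold with no filter (-0.91, 0.0657), TPM (-0.78, 0.0564) and all 44 libraries (-0.91, 0.245), and its difference was -1.09 to -0.68 with 1 library left out. Leaving 1 out gave 4.04 to 4.6 for Havcr1, 3.85 to 4.48 for Mmp7, 3.8 to 4.44 for Lcn2 and -2.45 to -1.53 for Dnase1. Dnase1 passed the threshold with TPM (-2.03, 0.0492), array weights (-1.54, 0.0458), all PND15 libraries (-2.16, 0.0171) and all 44 (-2.16, 0.000846). Het against WT gave 2 calls with all 44 libraries. The change from PND15 to PND21 was called in 0.714% of genes, in number 46 with a pseudocount of 0.1, 68 with no filter, 65 with a mean of at least 5 FPKM, 66 with TPM, 762 with array weights, 34 with voom, 543 with all 44 libraries and 19 to 219 with 1 library left out. The change from PND5 to PND15 gave 815 to 2518 calls with 1 left out. The median of rising maturation genes was -0.91 when a change of at least 2 log2 units was asked for, and -0.67 to -0.54 with 1 library left out. Mmp9 reversed, from 0.29 to -0.46, without Het replicate 2 (0.0477), and was up to 0.63 without another library. The causes were not tested. Of 159 named genes that were called, 87 lost their call in no alternative in which they were tested, other than title numbers 60 to 69 only. No paired analysis was possible because replicate numbers follow record order and pair no samples. Depth limits Mmp7, Cxcl6 and Il19 in Het to 1, 1 and 6 reads.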

Other observations

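Values that belong to no comparison above are given here, chosen after they were seen. Hprt1, a purine salvage gene that was not called, was at 32.6 FPKM in Homo replicate 4 and 26.3 in Het replicate 1, and at 0.316 to 1.14 in the other 6 libraries, so its group means of 8.53 ± 16.1 and 7.15 ± 12.8 each rest on 1 library. Fabp4, a fat cell gene, was at 264 FPKM in Het replicate 2, 173 in Het replicate 4 and 95.4 in Homo replicate 4, and at 5.36 to 28.3 in the other 5. Junb, an immediate early gene, was at 103 FPKM in Het replicate 4 and 22.3 to 24.6 in the other 3 Het libraries, and at 51.6 to 112 in Homo.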
